A study of Mus musculus with 9 samples.

Results

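The miR-200 family is the set of miRNAs made from the hairpins Mir200a, Mir200b, Mir429, Mir200c and Mir141. Its members here are 7 mature arms, taken by name from the 860 mature miRNAs of each library: miR-200a-3p, miR-200a-5p, miR-200b-3p, miR-200b-5p, miR-200c-3p, miR-141-3p and miR-429-3p. All 7 were found. Of these, 5 passed the filter on low values and were tested among 489 miRNAs, and the 5p arms of miR-200a and miR-200b lay under it.

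The libraries are small RNA sequencing of the fat under the skin from 9 mice, 1 library per mouse. The controls were 3 wild-type littermates, labelled WT. The other groups were knockouts of Ago1 in endothelial cells, 3 mice labelled Hete KO and 3 labelled Homo KO, written here as Hete_KO and Homo_KO. Ago1 encodes an Argonaute protein, which holds a mature miRNA and guides it to its target mRNAs. All 9 mice were 24 weeks old and had been on a diet rich in fat and sucrose from week 8 of life, for 16 weeks. The sources used here do not name the driver of the knockout, the sex of the mice or the fat pad. The knockout could not be checked on Ago1 mRNA, and the genotypes are as labelled.

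In vertebrates the miR-200 family is typical of epithelial cells. Its miRNAs repress the mRNAs of ZEB1 and ZEB2, transcription factors that switch off epithelial genes such as the one for E-cadherin, and ZEB1 and ZEB2 in turn repress transcription of the miR-200 hairpins. Adipocytes, fibroblasts and endothelial cells are not epithelial, so in fat these miRNAs serve as a trace of epithelium, for example of skin or of ducts of the mammary gland. In bulk tissue, fewer cells of a type and less RNA per cell cannot be told apart.

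The mature sequences show how the family divides. Each is written from its 5′ end, with the seed, bases 2 to 8, in capitals, because the seed sets which mRNAs are bound. Sequences are from RefSeq on GRCm38.p6, which had all 7 members and 698 of the 860 miRNAs by name.
miR-200b-3p: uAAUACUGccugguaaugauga
miR-200c-3p: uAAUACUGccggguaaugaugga
miR-429-3p: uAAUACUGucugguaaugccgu
miR-200a-3p: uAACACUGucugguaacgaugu
miR-141-3p: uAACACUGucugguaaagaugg
miR-200b-5p: cAUCUUACugggcagcauugga
miR-200a-5p: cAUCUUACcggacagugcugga

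The 3p arms carried 2 seeds that differ in 1 base. miR-200b-3p, miR-200c-3p and miR-429-3p shared AAUACUG, and miR-200a-3p and miR-141-3p shared AACACUG. The 5p arms of miR-200a and miR-200b shared AUCUUAC. Among the 860 miRNAs of the files, those with a RefSeq sequence and one of these seeds were the 7 members alone. Over their whole length, seed included, the 3p arms are also alike: miR-200a-3p and miR-141-3p differ at 2 of 22 bases, as do miR-200b-3p and miR-200c-3p, and the other pairs differ at 4 or 5. The sources used here do not say how reads that fit several arms were assigned, so the split between the closest pairs is uncertain.

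The hairpins lie in 2 clusters, all on the minus strand. On chromosome 4 of GRCm38 are Mir429 (156053905 to 156053987), Mir200a (156054896 to 156054985) and Mir200b (156055681 to 156055750), with 908 and 695 bases between neighbours. In the GENCODE annotation, which is on the assembly that mm10 names, the 3 lie in introns of transcripts of the protein-coding gene Ttll10. They also lie in the noncoding gene Gm13648, Mir200b and Mir200a in its intron and Mir429 in an exon. On chromosome 6 are Mir141 (124717914 to 124717985) and Mir200c (124718322 to 124718390), with 336 bases between them, both in an intron of the noncoding gene Gm15884. Mir141 also overlaps an exon of the gene Gm29008 on the same strand. Each of the 2 seeds of the 3p arms is therefore made from both clusters, and the seed of the 5p arms from chromosome 4. For miR-200b and miR-200a both arms were among the members, and their hairpins show where the arms sit, with the mature arms in capitals.
Mir200b: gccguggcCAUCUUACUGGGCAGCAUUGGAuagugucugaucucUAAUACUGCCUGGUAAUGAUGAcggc
Mir200a: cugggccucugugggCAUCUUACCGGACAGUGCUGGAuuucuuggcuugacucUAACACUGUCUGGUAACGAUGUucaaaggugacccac

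The 3p arms of both clusters had their highest value in the same library. Only for chromosome 4 is a window also shown, around the RefSeq start of Gm13648, the noncoding gene its 3 hairpins share (chr4:156059753-156060052, minus strand, GRCm38.p6, 250 bases before the start and 50 from it on). No window was examined for the chromosome 6 cluster. Capitals mark CACCTG, the E-box form that ZEB1 and ZEB2 are known to bind, searched on both strands (CACCTG and CAGGTG).
Gm13648: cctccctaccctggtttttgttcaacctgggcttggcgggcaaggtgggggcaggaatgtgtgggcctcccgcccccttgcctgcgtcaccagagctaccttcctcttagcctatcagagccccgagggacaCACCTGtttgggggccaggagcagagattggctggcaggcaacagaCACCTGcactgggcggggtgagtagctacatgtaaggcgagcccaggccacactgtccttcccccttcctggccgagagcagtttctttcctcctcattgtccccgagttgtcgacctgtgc
The window held 2 matches. Of 32851 RefSeq windows of this length, 20.2% held at least 1 match and 2.88% held 2 or more. A match is a description of the letters and not a measured site.

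Values are on the authors' log2 scale, which was judged to be a quantile-normalized log2(x + 1): each library holds nearly the same set of ranked values, with the same top value of 19.99. A value is thus a position in a shared ranking, read depth cannot be read from it and values carry no interval for counting error. A trace of depth is how many miRNAs sit at their library's floor: 63 to 104 in the WT mice, 101 to 152 in Hete_KO and 102 to 141 in Homo_KO. The members are 22 or 23 bases long, which could shift a comparison between them by at most 0.06 on the log2 scale if lengths were not divided out.

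The family was rare in these libraries, apart from Hete_KO replicate 1. Back-transformed (2 to the value, minus 1), the 7 arms together held 0.00202% to 0.00461% of a library's summed values in 8 libraries and 0.0306% in Hete_KO replicate 1. Per 1000000 of summed values, the WT mice had 26.1, 20.2 and 30.5. The Hete_KO mice had 306 (replicate 1), 42.2 and 32.7, and the Homo_KO mice 40.5, 46.1 and 37.7. Endothelial miR-126a-3p, by comparison, lay between 16.84 and 17.99 on the log2 scale in the 9 libraries. The arms with seed AAUACUG made up 49.1% to 68.9% of the family's summed values, those with AACACUG 31.0% to 50.2% and the 5p arms at most 1.27%.

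Hete_KO replicate 1 stood apart from all other libraries in every member. All 7 arms had their highest value of the 9 libraries there, so the limma estimates and calls of the tested members are given with and without this mouse. The overlaps of groups, the test of miR-200b-5p, the strand tests and the cluster differences include it.

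miR-200b-3p, of the chromosome 4 cluster, was at 5.61, 5.12 and 5.53 in WT replicates 1, 2 and 3. The Hete_KO mice had 9.05, 6.02 and 5.65, and the Homo_KO mice 5.85, 5.80 and 6.17. Both knockout groups lay wholly above WT, the lowest Hete_KO mouse by a narrow margin. Among all 489 tested miRNAs, 18.4% were higher without overlap in Homo_KO against WT and 8.59% in Hete_KO against WT. The share with both groups above WT was not counted.

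miR-200a-3p, of the same cluster but with the other seed, was at 5.61, 5.65 and 6.23 in WT. Its Hete_KO values were 9.44, 6.79 and 6.18, and its Homo_KO values 6.52, 6.68 and 6.38. Homo_KO did not overlap WT, whereas Hete_KO replicate 3 fell just under WT replicate 3.

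miR-429-3p, the third miRNA of chromosome 4, was at 4.05, 3.54 and 4.16 in WT. The values in Hete_KO were 7.17, 3.42 and 4.43, and those in Homo_KO 4.28, 3.92 and 4.05. All 3 groups overlapped, and the lowest library of the 9 was Hete_KO replicate 2.

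miR-200c-3p, of the chromosome 6 cluster, was at 5.86, 4.83 and 5.76 in WT. Hete_KO mice had 8.89, 6.22 and 5.74, and Homo_KO mice 6.04, 6.38 and 5.94. Homo_KO lay above WT without overlap, and Hete_KO replicate 3 fell within the WT range.

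miR-141-3p, its neighbour, was at 2.88, 3.91 and 3.72 in WT. It reached 7.59, 4.52 and 4.52 in the Hete_KO mice, and the Homo_KO mice had 5.35, 5.77 and 4.44. Here, as for miR-200b-3p, all 6 knockout mice lay above all 3 WT mice, and the share of all miRNAs that did so was not counted.

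The 5p arms, the strands that are mostly discarded, were near the bottom of the ranking. miR-200b-5p was at 0.00, 0.00 and 0.84 in WT. Its Hete_KO values were 2.79, 1.59 and 1.92, and its Homo_KO values 0.00, 0.22 and 0.91. The 3 Hete_KO mice were above the other 6. miR-200a-5p was at 0.22, 0.00 and 1.37 in WT. For this arm the Hete_KO mice had 3.11, 0.22 and 0.00 and the Homo_KO mice 0.00, 1.48 and 0.91, with overlap throughout. Each 5p arm was at its library's lowest value in 4 of the 9 libraries.

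**Figure D1:**
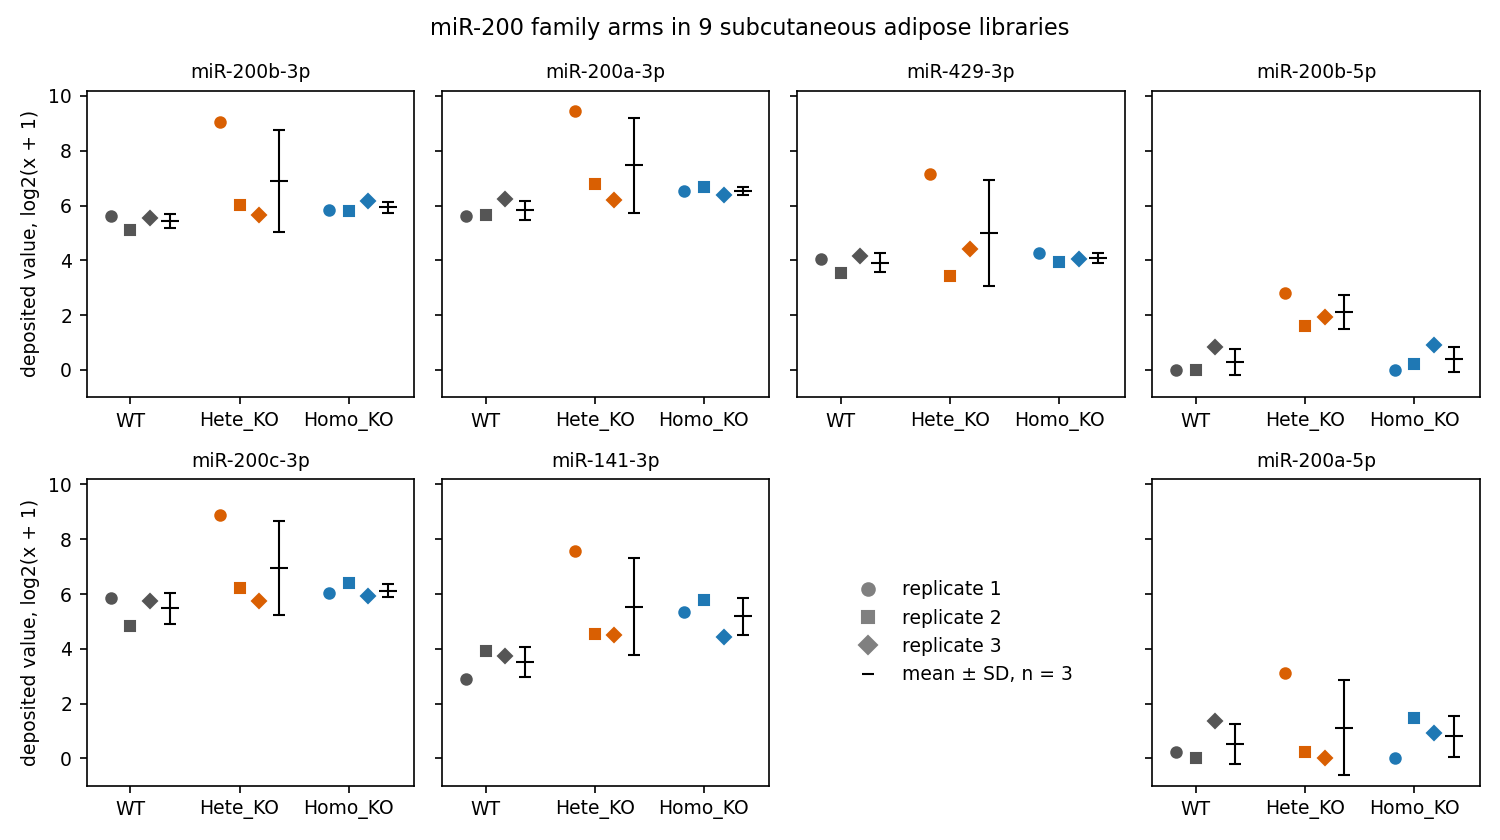
Deposited value (log2(x + 1), y axis) of each of the 7 arms by genotype (x axis), with 1 point per mouse (circle, square and diamond for replicates 1, 2 and 3) and bars for the mean ± SD of 3 mice. Hete_KO replicate 1 is the highest point in all 7 panels, and in miR-141-3p all 6 knockout mice sit above the WT values of 2.88 to 3.91. The share of all miRNAs with that pattern was not counted.

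The order of the members by level was much the same in every library. miR-200a-3p was first in 8 of 9 libraries, the exception being WT replicate 1, where miR-200c-3p was first and miR-200a-3p and miR-200b-3p held the identical value. At the top, miR-200a-3p exceeded miR-200b-3p by 0.52 ± 0.28 and miR-200c-3p by 0.43 ± 0.29 (log2 differences, mean ± SD over 9 libraries), each above 0 in 8 of 9 libraries. miR-200b-3p minus miR-200c-3p was -0.09 ± 0.28, within its spread. Below them, miR-200c-3p exceeded miR-141-3p in 9 of 9 libraries, by 0.62 to 2.98. miR-141-3p and miR-429-3p could not be ordered, with a difference of 0.41 ± 0.89 that was above 0 in 7 of 9 libraries. The WT replicates 1 and 3 had miR-141-3p as the lowest of the 5, and the other 7 libraries had miR-429-3p.

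Hete_KO replicate 1 held far more of every 3p arm than any other library. Its value exceeded the highest of the other 8 libraries by 2.88 for miR-200b-3p, 2.74 for miR-429-3p, 2.64 for miR-200a-3p, 2.51 for miR-200c-3p and 1.82 for miR-141-3p, on the log2 scale. These were the 5 largest such excesses among the 489 miRNAs. The sixth was miR-205-5p, a miRNA of keratinocytes and of basal cells of the mammary gland, at 8.26 against at most 6.49 elsewhere, an excess of 1.77. The seventh, miR-667-3p, was 0.81 above the other libraries. In the other 8 libraries no member could have such an excess, because every member had its highest value in Hete_KO replicate 1. miR-205-5p is shown with its seed, which none of the members shares; miR-667-3p and this ranking were chosen after the values were seen.
miR-205-5p: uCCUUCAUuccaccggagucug

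The excess was of like size for members of both clusters and both seeds. The closest pairs, miR-200a-3p with miR-141-3p and miR-200b-3p with miR-200c-3p, each span both clusters. Since the assignment of reads that fit several arms is unknown, the values of the clusters may not be independent. Against the mean of the other 8 libraries, Hete_KO replicate 1 was higher by 3.33 for miR-200b-3p, 3.20 for miR-141-3p, 3.18 for miR-429-3p, 3.18 for miR-200a-3p and 3.05 for miR-200c-3p (log2). That is 8.28-fold for miR-200c-3p, the smallest of the 5, and 9.17-fold for miR-141-3p. The members' order stayed as in other libraries: miR-200a-3p exceeded miR-141-3p by 1.85 there and by 1.87 ± 0.63 in the other 8 (SD), and miR-200b-3p exceeded miR-429-3p by 1.88 there and by 1.74 ± 0.45 elsewhere. In the ranking of 860 miRNAs the 3p arms stood at places 151 to 239 in this library, and in the other 8 the highest place of any member was 256. With 1 such mouse there is no replicate of this pattern.

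**Figure D2:**
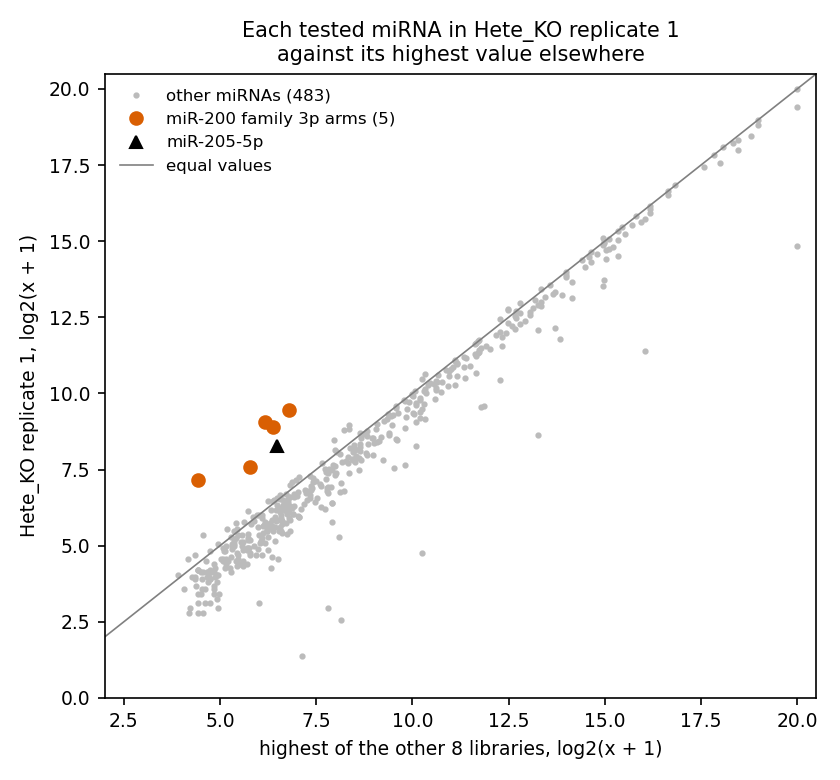
Each of the 489 tested miRNAs, with its highest value in the other 8 libraries on the x axis and its value in Hete_KO replicate 1 on the y axis (both log2(x + 1)). The line marks equal values. The 5 members (orange circles) and miR-205-5p (triangle) sit 1.77 to 2.88 above the line, and every other miRNA is less than 1 above it.

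Markers of other cell types in Hete_KO replicate 1 were as follows, and their part in the result was not tested. Of 9 other epithelial miRNAs, 2 had their highest value there, miR-205-5p and miR-31-5p, the latter by only 0.215. Hete_KO replicates 2 and 3 held the highest value of 2 and 3 of these 9, ties included. The 3 erythroid miRNAs, miR-451a, miR-144-3p and miR-486a-5p, all had their lowest value there, with a mean of 9.67 against 10.50 to 11.55 elsewhere. The mean of the 4 skeletal muscle miRNAs was 10.04, within the 6.17 to 14.35 of the others. Of the 6 stromal and mural miRNAs, 3 were at their highest there, each tied with at least 1 other library: miR-143-3p (19.99), miR-199a-3p (15.46) and miR-214-3p (11.66). None of the endothelial, muscle or liver miRNAs was at its highest or lowest there, and of 6 leukocyte miRNAs 1, miR-223-3p, was at its highest. The 101 miRNAs at the lowest value lay inside the range of the other libraries.

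The comparison of Homo_KO with WT asks whether the arms differ between Homo_KO and wild-type mice on the same diet. All 5 tested members had positive log2 fold changes, with a median of 0.64, where the median over all 489 miRNAs was 0.07, and none passed the test. miR-141-3p had the largest, 1.68 ± 0.77 (SE, limma, adjusted p = 0.218), from 3.50 ± 0.55 in WT to 5.18 ± 0.68 in Homo_KO (SD, n = 3 each). The changes were 0.70 ± 0.68 for miR-200a-3p, 0.64 ± 0.70 for miR-200c-3p, 0.52 ± 0.73 for miR-200b-3p and 0.17 ± 0.78 for miR-429-3p (SE, limma, adjusted p from 0.541 to 0.903). At an unadjusted p under 0.05 the count of members was also 0, beside 13.5% of all miRNAs that were higher at that level. Over all miRNAs 3.27% were called in this comparison, and 1.64% were called higher.

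In 4 of the 5 tested members, all but miR-429-3p, the 3 Homo_KO mice lay above the 3 WT mice. Among all 489 miRNAs 18.4% were higher without overlap in this comparison, and 32.7% were without overlap in either direction. The spread of Hete_KO replicate 1 entered the error of this comparison, since all 3 genotypes share 1 estimate of the spread. Without that mouse the fold changes were the same by construction and their SE fell, to 0.41 for miR-141-3p (limma, adjusted p = 0.0526), 0.24 for miR-200a-3p (adjusted p = 0.117) and 0.21 for miR-200b-3p (adjusted p = 0.183). There too 0 of 5 passed the test (4.70% of all miRNAs did), while 3 of 5 had an unadjusted p under 0.05 and were higher, as were 14.3% of all miRNAs. At the floor were 63 to 104 miRNAs in WT mice and 102 to 141 in Homo_KO mice, and the muscle mean was 7.56 to 13.73 in WT and 6.17 to 11.68 in Homo_KO; their part in the result was not tested beyond a covariate. With the number at the lowest value as a covariate the log2 fold changes of the 5 members were between 1.22 and 1.91, and with the muscle mean between -0.19, for miR-429-3p, and 1.45, again with 0 called.

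Some markers of other cell types also lay apart between these groups, with 1 called. Their part in the results on the members and on miR-203-3p was not tested. Of 6 leukocyte miRNAs, 5 had positive and 1 a negative log2 fold change in Homo_KO against WT, with a median of 0.24. The mean of the list was 11.56 to 11.66 in the WT mice and 11.93 to 12.19 in the Homo_KO mice, without overlap. Of these, 1 was called, miR-142a-5p, at 1.26 ± 0.25 (SE, limma, adjusted p = 0.0314). That call ended in 7 of the 9 fits without 1 library (limma, adjusted p from 0.00372 to 0.128 over the 9), all but those without Hete_KO replicate 1 or 2, and with the number at the floor (0.0862) or the muscle mean (0.0935) as a covariate. Both tested endothelial miRNAs had negative values: miR-126a-5p was at -0.47 ± 0.14, with all 3 Homo_KO mice below WT, and did not pass the test (limma, adjusted p = 0.0869). No leukocyte or endothelial miRNA was at a library's lowest value.

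For Hete_KO against WT, the corresponding question for the other knockout group, the 5 members had log2 fold changes from 1.09 to 2.04 with a median of 1.49, beside -0.02 over all miRNAs. The group means were 5.54 ± 1.77 in Hete_KO and 3.50 ± 0.55 in WT for miR-141-3p and 7.47 ± 1.73 and 5.83 ± 0.35 for miR-200a-3p (SD, n = 3 each). None passed the test (limma, adjusted p from 0.239 to 0.524), and 2 of 5, miR-141-3p and miR-200a-3p, had an unadjusted p under 0.05 and were higher, where 8.59% of all miRNAs were. Over all miRNAs 0.409% were called. miR-200b-3p and miR-141-3p were higher in Hete_KO without overlap, as were 8.59% of all miRNAs, and 17.2% had no overlap in either direction. The 3 erythroid miRNAs, both tested endothelial miRNAs and 3 of the 6 leukocyte miRNAs had negative log2 fold changes, with none called. Among them, erythroid miR-451a was at -1.09 ± 0.27 and endothelial miR-126a-5p at -0.54 ± 0.14, both without overlap (SE, limma, adjusted p = 0.0825 for each). The part of these markers in the result was not tested.

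Much of this difference came with Hete_KO replicate 1. Without it the log2 fold changes were 1.02 ± 0.46 for miR-141-3p, 0.66 ± 0.27 for miR-200a-3p, 0.50 ± 0.34 for miR-200c-3p, 0.42 ± 0.24 for miR-200b-3p and 0.01 ± 0.40 for miR-429-3p (SE, limma, adjusted p from 0.225 to 0.997), with 2 mice against 3. None was called there, while 4.91% of all miRNAs were, and 1 of 5, miR-200a-3p, had an unadjusted p under 0.05 and was higher, beside 10% of all miRNAs. The SD of the members within Hete_KO was 1.70 to 1.94, where the median SD of all tested miRNAs in that group was 0.30. In WT and Homo_KO the members' SDs were 0.26 to 0.57 and 0.15 to 0.68, beside medians over all miRNAs of 0.25 and 0.21.

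Homo_KO against Hete_KO asks whether the knockout groups differ. All 5 members were lower in Homo_KO by estimate, between -0.97 for miR-200b-3p and -0.36 for miR-141-3p, and none passed the test (limma, adjusted p from 0.813 to 0.950), nor had any an unadjusted p under 0.05. Of all miRNAs 0% were called and 2.04% were lower at that unadjusted level. The groups overlapped in all 5 members, and 12.3% of all miRNAs had no overlap. Without Hete_KO replicate 1 all 5 estimates turned positive, from 0.04 ± 0.27 for miR-200a-3p to 0.66 ± 0.46 for miR-141-3p (SE, limma, adjusted p from 0.666 to 0.983), so the direction of this comparison rested on that mouse. For miR-141-3p it did not rest on that mouse alone, since its sign also turned with sample weights and without Homo_KO replicate 3. The test over the 3 genotypes together called 0 of 5 members and 1.23% of all miRNAs (moderated F-test, limma, adjusted p from 0.281 to 0.605), with 0 members at an unadjusted p under 0.05. Without Hete_KO replicate 1 it called 0 of 5, and 3.48% of all miRNAs (moderated F-test, limma, adjusted p from 0.0996 to 0.916). There 2 of 5 members had an unadjusted p under 0.05, and the share of all miRNAs at that level was not counted for this test. The comparisons with WT share the WT mice, so their values for a member are not independent.

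**Figure D3:**
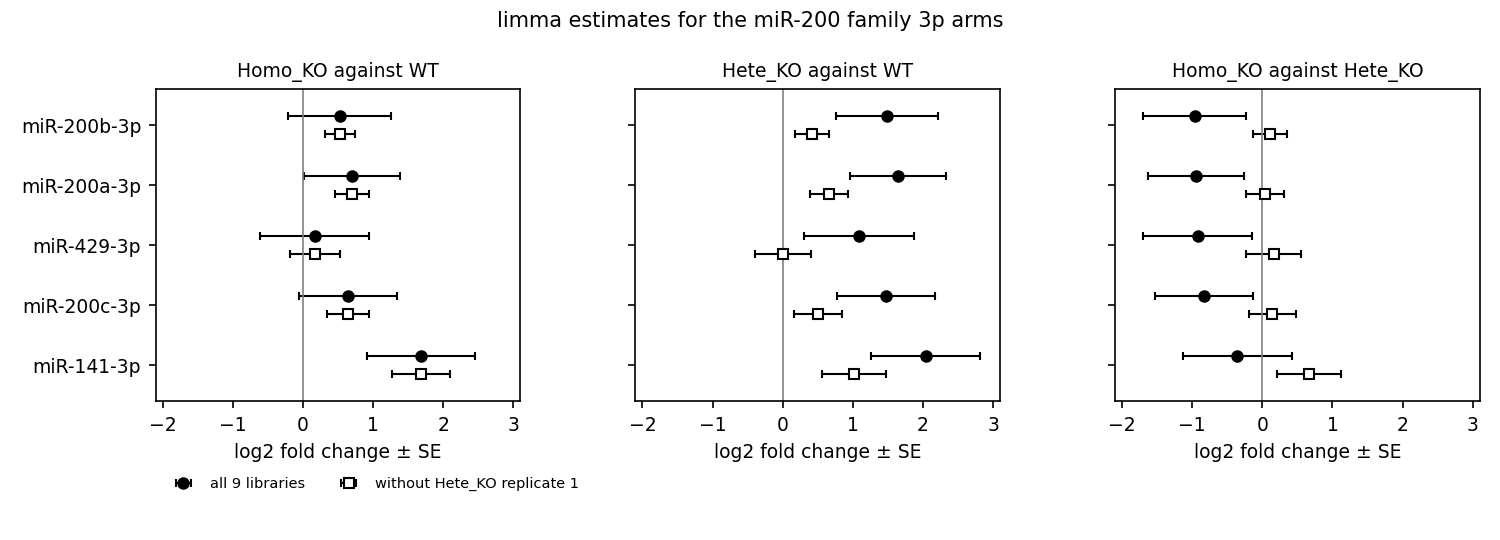
Log2 fold changes (x axis, with SE as bars) of the 5 tested members (y axis) in the 3 comparisons, from all 9 libraries (filled circles) and without Hete_KO replicate 1 (open squares). In the panel of Homo_KO against WT the points stay and the bars shorten without that mouse, and in Homo_KO against Hete_KO all 5 points move from below 0 to above 0.

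The levels of miR-200b-5p, which lay under the filter, were tested only when no filter was used. It was then 1.82 ± 0.53 higher in Hete_KO than in WT (SE, limma, adjusted p = 0.157) and did not pass the test. Homo_KO differed from WT by 0.10 ± 0.53 for this arm. Against Hete_KO it was at -1.72 ± 0.53 (SE, limma, adjusted p = 0.648) and did not pass the test either.

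Both arms of a hairpin come from the same precursor, so the 3p value minus the 5p value was compared between genotypes. For miR-200a the WT mice had a log2 difference of 5.30 ± 0.40, the Hete_KO mice 6.36 ± 0.20 and the Homo_KO mice 5.73 ± 0.70 (SD, n = 3 each). Hete_KO against WT gave the smallest p that 3 mice against 3 allow (exact permutation test, two-sided, p = 0.1, adjusted over 6 tests p = 0.6). For miR-200b it was 5.14 ± 0.46, 4.81 ± 1.31 and 5.57 ± 0.30, with exact permutation p between 0.3 and 0.7. Where the 5p arm is at the lowest value these differences are set by that floor.

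Comparison of the clusters, the mean of miR-200a-3p, miR-200b-3p and miR-429-3p minus that of miR-200c-3p and miR-141-3p, is given as a description. The WT mice had 0.72, 0.41 and 0.57, the Hete_KO mice 0.31, 0.04 and 0.30, and the Homo_KO mice -0.15, -0.61 and 0.35. All 6 knockout mice were below the 3 WT mice, and how often other sets of miRNAs separate so was not counted. miR-141-3p, which enters the subtracted mean, was the member with the largest fold change in both comparisons with WT. The log2 fold change of miR-200c-3p, the other miRNA in that mean, was 0.64 in Homo_KO and 1.47 in Hete_KO. Those values lay within the ranges of the chromosome 4 arms, 0.17 to 0.70 and 1.09 to 1.64. The separation is therefore not a trait of the whole chromosome 6 cluster. Hete_KO replicate 1, which stood apart in level, was within the range of the others in this balance of clusters.

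The list of other epithelial miRNAs held 9 miRNAs, of which 7 were tested. In Homo_KO against WT 5 of the 7 were positive and 1, miR-203-3p, passed the test (limma, log2 fold change 0.95 ± 0.18 SE, adjusted p = 0.0314). In Hete_KO against WT all 7 were positive and 0 were called. There 3 of the 7 had an unadjusted p under 0.05 (limma), beside 8.59% of all miRNAs that were higher at that level. Without Hete_KO replicate 1, 5 were positive and 2 negative, with 1 called. The summed level of the list, which miR-203-3p dominates, ran from 12.07 to 12.49 over WT mice, from 12.77 to 13.16 over Hete_KO mice and from 12.92 to 13.13 over Homo_KO mice (log2). Only miR-31-3p was at a library's lowest value, in Hete_KO replicate 2.

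miR-203-3p, which promotes differentiation of keratinocytes, was at 11.71, 11.79 and 12.16 in WT. The Hete_KO mice had 12.38, 12.92 and 12.92, and the Homo_KO mice 12.73, 12.87 and 12.92. It was thus high in all knockout mice, and Hete_KO replicate 1, the library with the most miR-200, was the lowest of these. The call in Homo_KO did not hold when a single mouse was left out: WT replicate 1 (limma, adjusted p = 0.120), WT replicate 2 (0.0746), Hete_KO replicate 3 (0.0572), or Homo_KO replicate 1 (0.0590), replicate 2 (0.115) or replicate 3 (0.112). It also ended with the number at the floor (adjusted p = 0.194) or the muscle mean (0.0935) as a covariate. In Hete_KO against WT it was not called (limma, adjusted p = 0.0605), and without Hete_KO replicate 1 it was (adjusted p = 0.0201).

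miR-205-5p was at 4.85, 4.52 and 4.66 in WT. Values in Hete_KO were 8.26, 4.16 and 1.92, and those in Homo_KO 6.49, 2.95 and 2.63. It was thus spread widely in the knockouts and was high in Homo_KO replicate 1 too, where the mean of the 5 tested members, 5.61, lay between those of the other Homo_KO mice. miR-182-5p, of a cluster known from sensory and epithelial cells, was at 9.16, 8.94 and 9.33 in WT. It was between 9.01 and 9.80 in the knockouts. miR-183-5p, of the same cluster, was at 7.99, 7.37 and 8.39 in WT and between 8.13 and 8.84 in the knockouts. miR-31-5p, abundant in keratinocytes, was at 7.09 in Hete_KO replicate 1 and at 5.26 to 6.87 in the others. In each of these 3 the knockout groups overlapped WT.

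**Figure D4:**
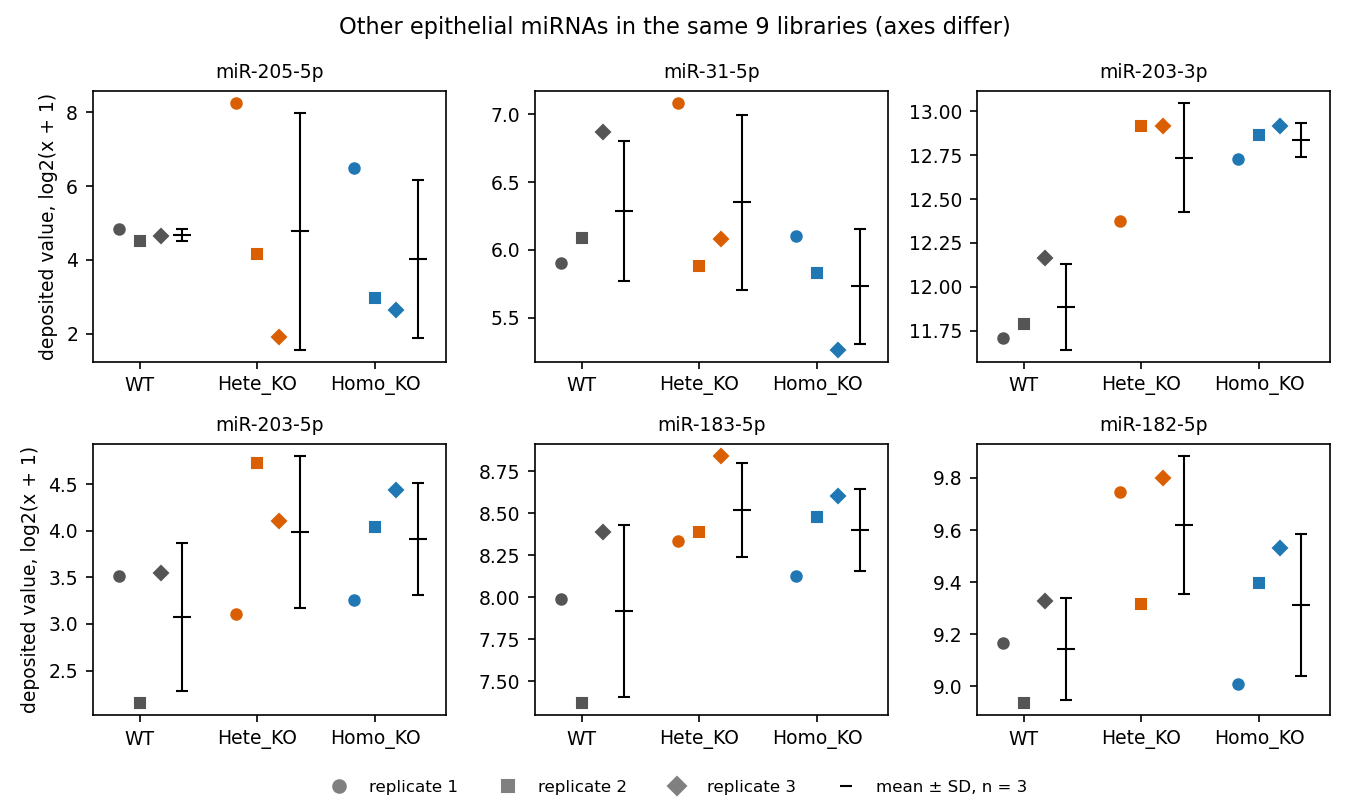
Values (log2(x + 1), y axes of different range) of 6 other epithelial miRNAs by genotype, with 1 point per mouse and bars for the mean ± SD of 3 mice. miR-205-5p is highest in Hete_KO replicate 1 (8.26), whereas miR-203-3p is lower there (12.38) than in the other 5 knockout mice.

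The miRNAs whose pattern was most like the mean of the 5 tested members were sought by Pearson's r over the 9 libraries, as a description with no test, since they are the highest of all miRNAs tested. They were miR-532-5p (r = 0.79), miR-223-3p (0.76), miR-374c-5p (0.76), miR-3473f (0.76), miR-3473e (0.75) and miR-3473b (0.75). Spearman's rho for these was between 0.56 and 0.85. The 3 miR-3473 miRNAs bear related names and may share reads. Without Hete_KO replicate 1 the r of miR-532-5p was 0.23, and that of the other 5 was between 0.57 and 0.80. The highest were then other miRNAs, led by miR-3962 (r = 0.98) and miR-186-5p (0.95) over 8 libraries. Of the epithelial miRNAs, miR-205-5p had r = 0.64 over 9 libraries and ranked 13 among the tested miRNAs that are no members, and miR-203-3p had r = 0.21 and ranked 138.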

How the data were processed

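Small RNA libraries were made from 9 mice with Trizol and Illumina's TruSeq small RNA kit, per the labels' protocols, on the genome build mm10, per the submitters' processing notes. For the aligner, counting tool, miRNA annotation and normalization: not given in the sources used here. Files deposited by the authors hold 1 log2 value per mature miRNA, from 0 to 19.99. Their name speaks of FPKM, but they were treated as quantile-normalized log2(x + 1), since all libraries have the same highest value and back-transformed sums of 6681250 to 6681288. No pseudocount was added. Depth is unknown, so differences in total miRNA cannot be seen.

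Tested were miRNAs with a mean of at least 3.46, log2(10 + 1), that exceeded the floor of 3 or more libraries (489 of 860, 371 left out). The genotype tests used limma 3.58.1 under R 4.3.3 (variance trend, all 9 libraries, no covariate), two-sided, with Benjamini-Hochberg adjustment over all 489 and a threshold of 0.05. The steps were tested on simulated data. Exact permutation tests used SciPy 1.17.1 and figures matplotlib 3.10.9. Members and lists were chosen with earlier results of these data known. Named are all members, the other epithelial miRNAs called or with the 4 highest means, the 6 most correlated miRNAs, and reference miRNAs of other tissues; miR-31-5p, miR-205-5p and others outside this were named after their values were seen. Alternatives were other filters, pseudocount, scaling, weights, covariates, fits of 2 groups alone, the replicate block, and leaving out each library.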

Additional observations from a re-analysis of the deposited data

How the results depend on the processing

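The count of miR-200 members called was 0 in each of the 3 comparisons and in the F-test under all alternatives run, leaving out each library in turn included (range 0 to 0). The count over all miRNAs ranged from 0 to 74 for Homo_KO against WT (16 as reported), from 0 to 34 for Hete_KO against WT (2), from 0 to 52 for the F-test (6) and was 0 throughout for Homo_KO against Hete_KO. Of the members' log2 fold changes against WT, the only sign change was that of miR-429-3p in Homo_KO, to -0.19 with the muscle mean as a covariate and -0.02 without WT replicate 2. For Homo_KO against Hete_KO, leaving out Hete_KO replicate 1 gave 0.04 for miR-200a-3p, 0.11 for miR-200b-3p, 0.14 for miR-200c-3p, 0.66 for miR-141-3p and 0.16 for miR-429-3p, and miR-141-3p was also at 0.10 with sample weights and 0.02 without Homo_KO replicate 3.

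Other epithelial miRNAs that passed no test in a comparison also changed sign. In Homo_KO against WT, miR-205-5p was at 0.02 with the number of miRNAs at the floor as a covariate, at 0.05 with the muscle mean and at 0.05 without Homo_KO replicate 3, and miR-182-5p at -0.05 with the muscle mean. In Hete_KO against WT, miR-205-5p was at -0.10 with repeated quantile normalization, -1.47 with sample weights and -1.63 without Hete_KO replicate 1. miR-31-5p was there at -0.13, -0.04 and -0.30 without WT replicate 1, WT replicate 2 and Hete_KO replicate 1, and miR-96-5p at -0.22 with sample weights and at -0.31 and -0.08 without WT replicate 2 and Hete_KO replicate 2. In Homo_KO against Hete_KO, miR-203-3p was at -0.08 and miR-205-5p at 0.98 without Hete_KO replicate 1, and at 0.35 for miR-205-5p with sample weights. miR-203-5p was at 0.30 and 0.25 without Hete_KO replicate 2 and Homo_KO replicate 1, and miR-183-5p at 0.04 and 0.02 without Hete_KO replicate 3 and Homo_KO replicate 1. Leaving out 1 library at a time gave, at the other end, 0.29 for miR-429-3p and -1.88 for miR-205-5p in Homo_KO against WT, and 1.54 for miR-205-5p, 0.36 for miR-31-5p and 0.33 for miR-96-5p in Hete_KO against WT. In Homo_KO against Hete_KO the other ends were -1.59 for miR-200a-3p and -1.59 for miR-200b-3p, -1.44 for miR-200c-3p, -0.87 for miR-141-3p, -1.71 for miR-429-3p, 0.19 for miR-203-3p, -0.51 for miR-203-5p and -2.19 for miR-205-5p. The causes were not tested.

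With the stricter filter miR-141-3p and miR-429-3p were not tested. The strand difference of miR-200b for Hete_KO against WT, -0.33, became 0.91 with a pseudocount of 8, and leaving out replicates gave -1.06 to 0.20. For Homo_KO against Hete_KO it went from 0.76 to -0.47 with that pseudocount. The difference between the clusters for Hete_KO against WT went from -0.35 to -0.19 with it. With the replicate number as a block, the difference of miR-203-3p between Hete_KO and WT was called too (limma, 0.85, adjusted p = 0.0337), and the counts of members called were 0, while those of all miRNAs were 25 for Homo_KO against WT, 15 for Hete_KO against WT and 16 for the F-test. Deviations from the group means correlated at over 0.1 in 5 of 9 same-numbered pairs (range -0.28 to 0.55). Since this was not so in every pair and no label ties the numbers to a litter, batch or day, the numbers were not taken as pairs. As a hint the other way, from the data and not the design, 7 of 9 libraries correlated best with a library of their own number.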
